A study of Mus musculus with 12 samples.

Results

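The platelet-derived growth factor (PDGF) ligands and receptors are 6 genes: the ligands Pdgfa, Pdgfb, Pdgfc and Pdgfd, and the receptors Pdgfra and Pdgfrb. They were taken by gene symbol. All 6 were found, out of 15557 genes listed in either of the deposited tables and 14986 listed in both, and all 6 passed the filter on low values in every comparison. In GRCm38 coordinates, Pdgfa lies on chromosome 5 from 138976014 to 138997370, Pdgfb on chromosome 15 from 79995900 to 80014808, Pdgfc on chromosome 3 from 81036416 to 81214040, Pdgfd on chromosome 9 from 6168612 to 6378843, Pdgfra on chromosome 5 from 75152292 to 75198215, and Pdgfrb on chromosome 18. Reads were counted over the whole gene, so exons and transcript variants were not told apart.

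PDGFs are secreted dimers that bind and activate a pair of receptor tyrosine kinases on the surface of mesenchymal cells. PDGF-A and PDGF-C act mainly through PDGFRα, PDGF-D mainly through PDGFRβ, and PDGF-B through both. PDGF-A and PDGF-B are trimmed by furin-like convertases, while PDGF-C and PDGF-D are secreted in a latent form that proteases must cleave outside the cell. In skin, PDGFRα marks dermal fibroblasts and the dermal papilla (DP), the mesenchymal cluster at the base of the hair follicle, PDGFRβ is also well known on the mural cells that wrap small vessels, and follicle keratinocytes are a known source of PDGF-A.

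RNA was sequenced from DP cells of mouse dorsal skin in 12 libraries, 3 for each combination of genotype and day. The days were postnatal day 14 (P14) and day 16 (P16) of the first hair growth phase (anagen). Double mutant (dMF1/2) mice were [Cor-cre/+; Fgfr1Flox/Flox; Fgfr2Flox/Flox], that is, they lost the fibroblast growth factor receptors Fgfr1 and Fgfr2 wherever Cre from the Corin locus was active, which after birth is mainly the DP. The control mice, labelled as wild type, were not free of modified alleles. The study describes controls as [Cor-cre/+; Fgfr1Flox/+; Fgfr2Flox/+] or as floxed mice without Cre. Cells of all groups were sorted for a YFP reporter that needs Cre, so only the first of these genotypes could yield sorted control cells. Such cells carry 1 floxed copy of each receptor gene, which Cre can delete. The genotype differences then set loss of both copies against possible loss of 1 copy. The genotype of each control library is not stated. The study describes each library as the DP of its own mouse, so the p-values rest on the spread between 3 mice a group. The labels give replicate numbers and a letter that same-numbered libraries of a day share across genotypes, but not what these mark. In sorted bulk RNA, fewer cells of a type and less RNA per cell cannot be told apart.

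The libraries held 19302358 to 29860750 reads in genes. The targeted gene Fgfr1 had 9981, 7745 and 8929 normalized reads in the P14 controls and 7405, 6391 and 6398 in P14 dMF1/2, and 12517, 8512 and 9940.2 in the P16 controls and 8015, 6226 and 7552 in P16 dMF1/2, so it was lower in the mutant in all 3 pairs on both days. Fgfr2 had 4939.5, 4483 and 4927 reads in the P14 controls, 5190.3, 3669 and 4591 in P14 dMF1/2, 5356, 5118 and 4763 in the P16 controls and 5554, 4113 and 5575 in P16 dMF1/2, and its groups overlapped. A count over the whole gene includes reads from exons that stay after recombination, so it checks the labels only in part. All 13 DP markers listed were measured in both tables and summed to 48018 to 161698 scaled reads per library, against 167 to 632 for 9 markers of follicle keratinocytes and 20.2 to 64.2 for the 4 of 8 immune markers that both tables held. Markers of neighbouring mesenchyme were also high: 8 dermal sheath markers summed to 17480 to 47339, 8 mural cell markers to 13086 to 33145 and 8 dermal fibroblast markers, nearly all of it Col1a1 and Col3a1, to 2607134 to 6784493. The libraries of replicate 1 at P14 stood apart: 3 fibrillar collagen genes (Col1a1, Col1a2 and Col3a1) took 17.7% of reads in the control and 21.0% in dMF1/2, against 27.2% to 36.1% in the other 10 libraries.

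Levels of the 6 genes were compared per kilobase of gene model, on a scale common to the 12 libraries. The receptors were far above the ligands. Pdgfra had a mean of 1857 reads per kb over the 12 libraries, rank 301 of 14958 genes with a length, and Pdgfrb 1698, rank 335. The ligands followed with 96.8 reads per kb for Pdgfd, 73.1 for Pdgfa, 25.4 for Pdgfc and 8.18 for Pdgfb, at ranks 6057, 7151, 10234 and 12095. In each of the 12 libraries the lower receptor was 11.4 to 21.7 times the highest ligand, and Pdgfb was the lowest of the 6. Over all libraries the ranges of Pdgfra (1539 to 2356 reads per kb) and Pdgfrb (1255 to 2292) overlapped, as did those of Pdgfd (64.9 to 135) and Pdgfa (47.4 to 95.0). The ranges of Pdgfc (18.5 to 31.7) and Pdgfb (4.44 to 12.3) touched neither each other nor those of any other member.

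**Figure D1:**
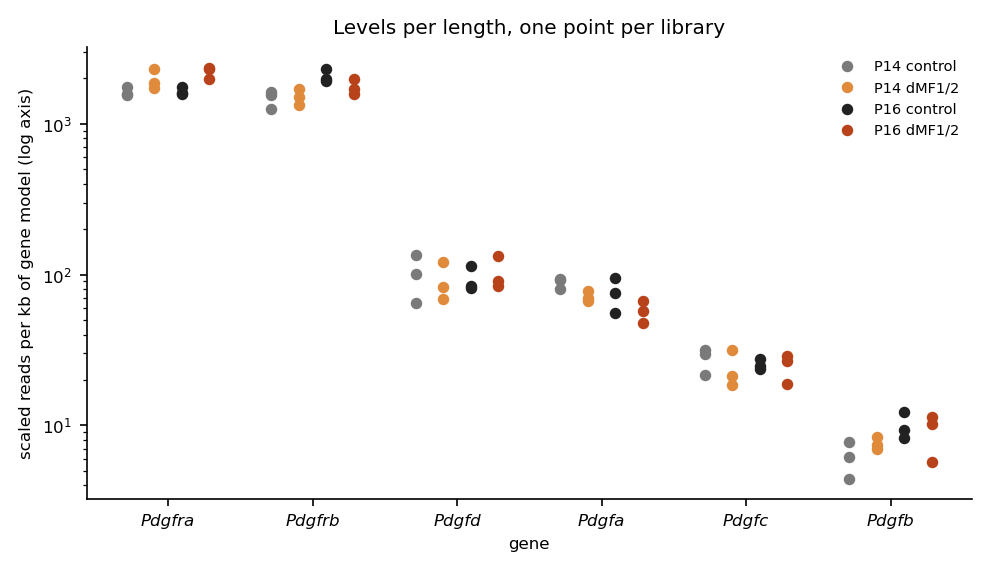
Scaled reads per kilobase of gene model (log axis) for the 6 genes, 1 point per library, coloured by group. Both receptors sit between 1255 and 2356 reads per kb in all 12 libraries, and the ligands at or below 135, with Pdgfb lowest.

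Whether loss of Fgfr1 and Fgfr2 went with other levels of these genes was asked within each day. The limma test on log2(normalized reads + 1) called none of the 6 at an adjusted p under 0.05 at P14, where 0.0525% of the 13334 genes tested were called, and none at P16, where 4.32% of 13457 genes were called. At an unadjusted p under 0.05 there was 1 member on each day, Pdgfa at P14 and Pdgfra at P16, against 7.32% and 19.0% of all genes. edgeR also called none on either day, while DESeq2 called none at P14 and Pdgfra at P16. In the days compared below, the same reads were rescaled over all 12 libraries before the test.

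Pdgfa, the ligand of PDGFRα, had 282, 248 and 288 normalized reads in the P14 controls and 216, 207 and 239.9 in P14 dMF1/2. Every mutant library was below every control library, as was so for 6.32% of all genes. The means were 273 ± 21.7 and 221 ± 17.0 (SD, n = 3), a log2 difference of -0.30 with a standard error (SE) of 0.12, which did not pass the limma test (adjusted p = 0.628). The P16 controls had 175, 239.5 and 300.1 reads and P16 dMF1/2 had 151, 182 and 211. These groups overlapped. The mutant was lower than the control of the same number in 3 of 3 pairs, at 0.702 to 0.866 of its level, as it had been at P14 at 0.765 to 0.836. How many of all genes had 3 pairs alike was not counted, here or for the members below. The log2 difference at P16 was -0.37 ± 0.21 (SE, limma adjusted p = 0.409), and it was -0.19 without P16 control replicate 3 and -0.58 without P16 control replicate 1. On the opposite strand, exons of 6330403L08Rik cover 26.1% of the exon bases of Pdgfa, and the strand setting of the counting is not given in the sources used here, so the share of reads from that gene is unknown.

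Between P14 and P16, Pdgfa went from 286, 251 and 292 scaled reads to 172, 236 and 296 in control, and the groups overlapped. In dMF1/2 it went from 219, 209 and 242 to 148, 179 and 207, with each P16 library below each P14 library, as for 14.4% of all genes. Neither change passed the limma test (log2 -0.27 ± 0.18, adjusted p = 0.346, and -0.34 ± 0.18, adjusted p = 0.303; both SE).

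Pdgfb, which binds both receptors, was close to the floor of what these libraries could resolve, with 17 to 51 reads per library before scaling. It had 31.7, 18.2 and 25.4 normalized reads in the P14 controls, 30.3, 28.8 and 34.4 in P14 dMF1/2, 34.9, 39.4 and 51.7 in the P16 controls, and 48.6, 42.9 and 24.3 in P16 dMF1/2. The genotypes overlapped on both days. The log2 difference was 0.33 ± 0.28 (SE) at P14 and -0.16 ± 0.30 at P16, with limma adjusted p-values of 0.917 and 0.850. In control, each P16 library was above each P14 library, as for 17.5% of all genes, and the scaled mean went from 25.4 ± 6.80 to 41.4 ± 8.64 (SD, n = 3). That log2 change of 0.70 ± 0.29 (SE) did not pass the limma test (adjusted p = 0.127).

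Endothelial cells are a known source of PDGF-B, and their markers are given beside it. The summed level of 10 endothelial markers was 1122 to 1571 scaled reads in the P14 controls, 1196 to 1338 in P14 dMF1/2, 806 to 1738 in the P16 controls and 901 to 1210.0 in P16 dMF1/2. From P14 to P16 in control, 2 of the 10 rose (Emcn and Esam) and 1 fell (Tek), beside the 14.5% of all genes called in that comparison. Kdr, a receptor for vascular endothelial growth factor, had 267 to 325 scaled reads at P14 and 90.4 to 260.4 at P16 and was not called. Over the 10 genes the median log2 change was 1.14, against 0.01 for all genes, and 6 of 10 were at an unadjusted p under 0.05, beside 31.9% of all genes. Among the uncalled low genes, Tie1 had 6.52 to 14.8 and 23.2 to 104 scaled reads with no overlap, while Pecam1, with 40.2 to 82.0 and 79.2 to 323, and Cldn5, with 4.35 to 7.91 and 6.88 to 76.5, overlapped. Their part in the values of Pdgfb was not tested.

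Pdgfc, another ligand of PDGFRα, had 108, 159 and 149 normalized reads in the P14 controls, 159, 108 and 93.3 in P14 dMF1/2, 128, 143 and 123 in the P16 controls, and 97.2, 138 and 149 in P16 dMF1/2. No pair of groups separated. Its 4 fitted differences between genotypes and between days lay between -0.22 and 0.06 on the log2 scale, and the 95% interval of the genotype difference at P16 was -0.48 to 0.37. The difference at P14 turned on single libraries: it was -0.22 with all, between -0.44 and -0.06 without any 1, and -0.61 without both libraries of P14 pair 1, in which the order of the genotypes was the opposite (limma adjusted p = 0.446).

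Pdgfd, the ligand of PDGFRβ and the most abundant ligand per length, varied more between replicates than between groups. It had 202, 421 and 313 normalized reads in the P14 controls, 213, 377 and 259.9 in P14 dMF1/2, 262, 366 and 269 in the P16 controls, and 294, 426 and 269.9 in P16 dMF1/2. Replicate 2 was the highest library in all 4 groups. Same-numbered libraries of a day deviated together over all genes, so these are not 4 separate observations. The log2 difference between genotypes was -0.12 ± 0.31 (SE) at P14 and 0.13 ± 0.20 at P16, and the 95% interval at P16 ran from -0.33 to 0.59. At P16 the mutant was above the control of its number in 3 of 3 pairs, at 1.005 to 1.165 times its level.

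**Figure D2:**
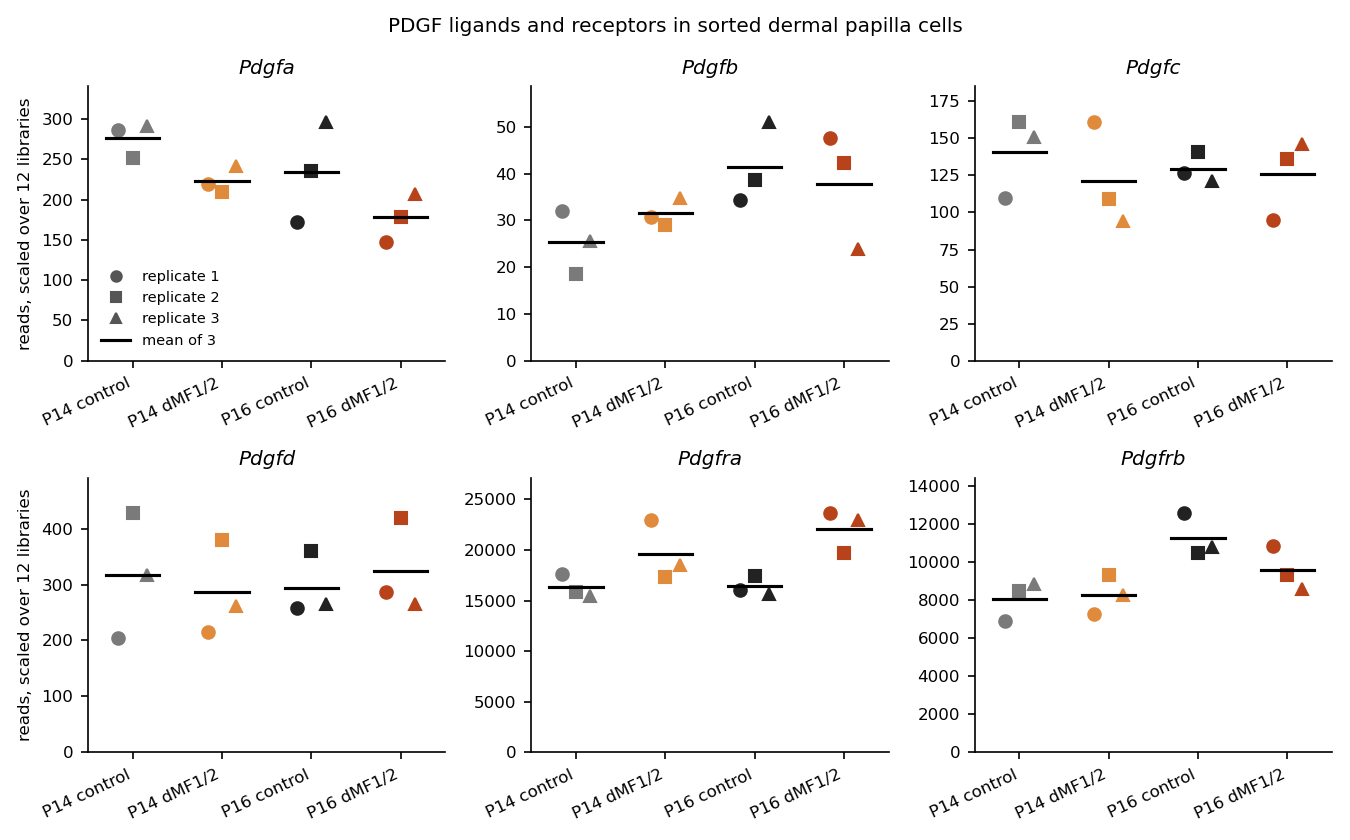
Reads scaled over the 12 libraries for each gene (vertical axes start at 0), by group, with a marker shape for each replicate and a line at the mean of 3. Pdgfra is higher in P16 dMF1/2 than in every control library, and Pdgfrb is higher in the P16 controls than in every P14 library.

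Pdgfra, the receptor for PDGF-A and PDGF-C, had the smallest p of the 6 between genotypes at P16. At P14 it had 17409, 15662 and 15225 normalized reads in control and 22638, 17153 and 18368 in dMF1/2. The groups overlapped by 1 library, and the log2 difference of 0.26 ± 0.15 (SE) did not pass the limma test (adjusted p = 0.826). Here the mutant was above the control of its number in 3 of 3 pairs, at 1.10 to 1.30 times its level. At P16 it had 16322, 17744 and 15889.8 reads in control and 24159, 20068 and 23438 in dMF1/2. Here the lowest mutant library lay above the highest control library, as for 12.9% of all genes.

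The P16 means of Pdgfra were 16652 ± 970.4 and 22555 ± 2184 (SD, n = 3), a 1.35-fold difference. Its log2 value was 0.43 ± 0.11 (SE), with a 95% interval of 0.17 to 0.70 and an adjusted p of 0.0785 in limma, which did not pass the threshold. Within pairs of the same replicate number the mutant was 1.13 to 1.48 times the control. With the replicate number as a block the limma test called the difference (adjusted p = 0.0473), as did DESeq2 on the recovered reads (0.00343), whereas edgeR without the block did not (0.0779). Leaving out 1 library at a time gave log2 0.38 to 0.52, all at adjusted p-values of 0.0691 or above. From P14 to P16 the control level changed by less than its error (log2 0.01 ± 0.13, SE; -0.01 after scaling by trimmed means), and dMF1/2 went up by a log2 of 0.18 ± 0.13 that did not pass the test (adjusted p = 0.443). Exons of Gm42802 on the opposite strand cover 4.55% of the exon bases of Pdgfra.

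Markers of the DP are given beside Pdgfra at P16. Of 13 DP markers, 4 were called higher in dMF1/2 (Alpl, Fgf10, Prom1 and Rspo3) and 1 lower (Crabp1), beside the 4.32% of all genes called. Notum, uncalled, was also lower in dMF1/2, at 1640 to 5032 scaled reads against 8004 to 10388 in the P16 controls. The study had reported Rspo3 and Notum from the same RNA. The summed level of the 13 was 48018 to 88785 scaled reads in the P16 controls against 93469 to 139576 in P16 dMF1/2. In the P14 controls that sum was 112959 to 156864, while Pdgfra changed by a log2 of 0.01 from P14 to P16 in control. Corin, whose locus drives the Cre, had 2736 to 12145 scaled reads in the P16 controls and 14983 to 26844 in P16 dMF1/2, without a call (limma adjusted p = 0.0938). Of 7 tested markers of adipocytes and their precursors, 2 were called higher (Plin1, a lipid droplet protein, and Cebpa, an adipogenic transcription factor), and the list summed to 5032 to 7783 scaled reads in the P16 controls and 10718 to 14667 in P16 dMF1/2. Most of that sum was Cebpa, with 4000 to 5774 and 8826 to 13186. Of those not called, Pparg, the regulator of fat cell fate, had a log2 difference of -0.53 ± 0.23 (SE, limma adjusted p = 0.256), the fatty acid binding protein Fabp4 -1.03 ± 0.31 (0.109) and the lipid receptor Cd36 -0.83 ± 0.61 (0.537). Adipoq was not in both tables. The median over the 7 was 0.22, against 0.00 for all genes. The part of these markers in the difference of Pdgfra was not tested.

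Pdgfrb, the receptor for PDGF-B and PDGF-D, was called between days in control and in neither comparison of genotypes. At P14 it had 6788, 8345 and 8740.3 normalized reads in control and 7187, 9205 and 8204 in dMF1/2, and at P16 it had 12736, 10639 and 10921 in control and 11091, 9459 and 8766 in dMF1/2. The genotypes overlapped on both days, with log2 differences of 0.04 ± 0.14 and -0.23 ± 0.12 (SE, limma adjusted p = 0.999 and 0.369). At P16 the mutant was below the control of its number in 3 of 3 pairs, at 0.803 to 0.889 of its level.

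In control, Pdgfrb rose from 6875, 8464 and 8856 scaled reads at P14 to 12553, 10461 and 10786 at P16. Every P16 library was above every P14 library, as for 17.5% of all genes. The means were 8065 ± 1049 and 11267 ± 1126 (SD, n = 3), a 1.40-fold rise with a log2 change of 0.49 ± 0.14 (SE) and an adjusted p of 0.0355 in limma. It was the only 1 of the 6 members called in this comparison, in which 14.5% of 13415 genes were called, and edgeR (0.0424) and DESeq2 (0.00737) called it as well. The call was lost without P14 control replicate 1 (adjusted p = 0.126), P14 control replicate 2 (0.0642), P16 control replicate 1 (0.129) or P16 control replicate 3 (0.0729), in a fit of the control groups alone (0.0743), and without both libraries of P14 pair 1 (0.0874), while the log2 change stayed between 0.38 and 0.56.

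In dMF1/2, Pdgfrb had 7289, 9292 and 8282 scaled reads at P14 and 10844, 9300.5 and 8602 at P16. The groups overlapped, and the log2 change was 0.21 ± 0.14 (SE, limma adjusted p = 0.395). None of the 6 members was called in this comparison, in which 5.80% of genes were called. No member was below an unadjusted p of 0.05 either, and edgeR and DESeq2 called none. The difference between the day changes of the genotypes was itself tested: for Pdgfrb it was -0.28 ± 0.19 (SE) with a 95% interval of -0.70 to 0.14, and for Pdgfra 0.17 ± 0.18 with an interval of -0.22 to 0.57. limma called 0% of the 13415 genes for that difference, none of the 6 members among them, with 648 genes (4.83%) and no member at an unadjusted p under 0.05. edgeR called 0 genes and DESeq2 called 7, none of them a member.

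Mural cell markers are given beside Pdgfrb. The list had 8 such markers, 7 of which passed the filter and were tested. The summed level of the 8 was 16495 to 25599 scaled reads in the P14 controls and 13086 to 19742 in P14 dMF1/2. At P16 it was 27879.6 to 33145 in the controls and 14058 to 19469 in dMF1/2. Much of the gap between the P16 controls and the other groups came from Cspg4. Cspg4, the NG2 proteoglycan of mural and some other mesenchymal cells, had 2965 to 6780.4 scaled reads in the P14 controls and 9408 to 15512 in the P16 controls, and was the 1 marker of the list that was called higher (limma, adjusted p = 0.0165), 1 of 7 tested or 14.3%, beside the 14.5% of all genes. With 2191 to 3873 scaled reads in P16 dMF1/2, it was also the 1 marker called between genotypes at P16, where it was lower in the mutant (log2 -2.05 ± 0.24, SE, limma adjusted p = 0.00604). Rgs5, a regulator of G protein signalling in pericytes, went from 5012 to 7609 up to 8483 to 9092 and was not called (0.120). Kcnj8, a potassium channel subunit of pericytes, had 445 to 659.5 and 441 to 551 scaled reads, and Higd1b, another pericyte marker, stayed between 2.08 and 11.0 in all 12 libraries. Most DP markers moved the other way in the same comparison: 6 of 13 (46.2%) were called lower in control at P16 (Corin, Alpl, Lef1, Fgf7, Fgf10 and Rspo3). The median log2 change over the 13 was -0.95, and their sum was 112959 to 156864 scaled reads at P14 and 48018 to 88785 at P16. Notum and Prom1 went up without a call. Notum had 3053 to 7431 scaled reads at P14 and 8004 to 10388 at P16, and Prom1 had 102 to 181 and 165 to 266. The part of either list in the rise of Pdgfrb was not tested.

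**Figure D3:**
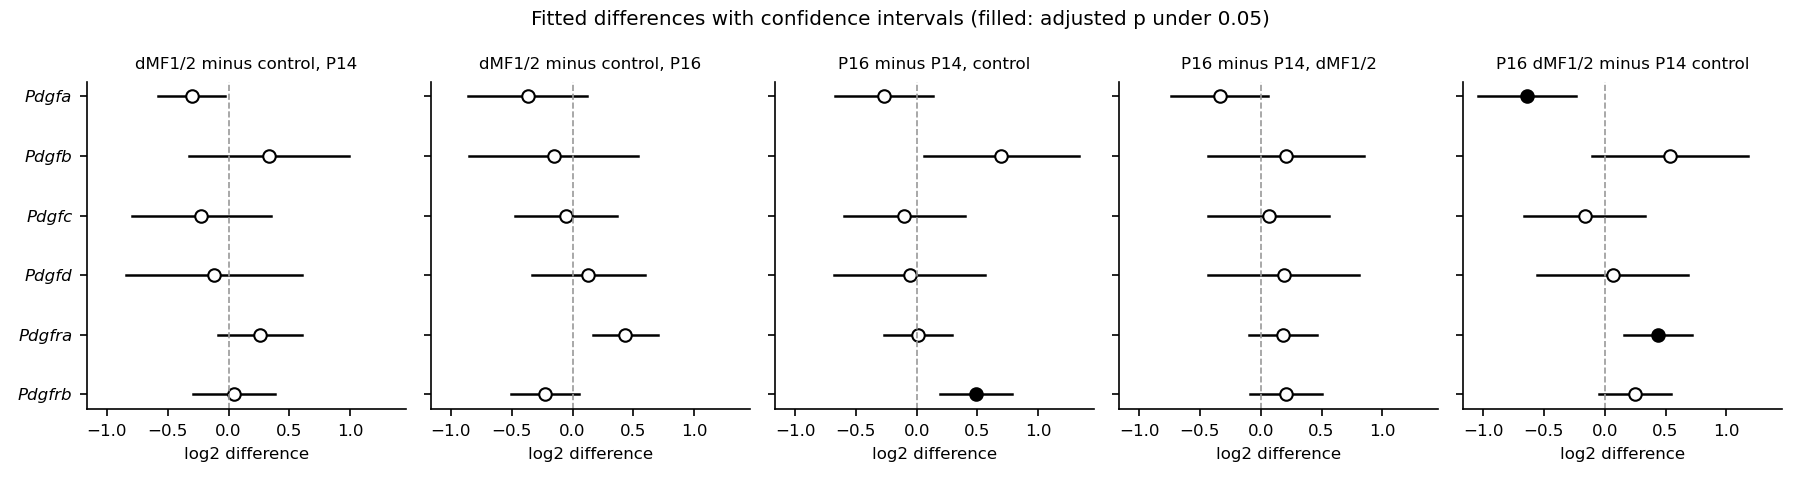
Fitted log2 differences of the 6 genes with 95% intervals in 5 comparisons, filled where the adjusted p was under 0.05. Pdgfrb in the control day change (0.49) and Pdgfa (-0.64) and Pdgfra (0.44) between P16 dMF1/2 and P14 control are the filled points.

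P16 dMF1/2 was also compared with P14 control, to place the older mutant DP beside the younger control DP. This comparison shares its libraries with those above. Pdgfa had 286, 251 and 292 scaled reads in P14 control and 148, 179 and 207 in P16 dMF1/2, and Pdgfra had 17632, 15885 and 15426 against 23619.8, 19731 and 22998. Neither gene overlapped between the groups, as for 31.9% of all genes. limma called 2 of the 6, with 11.0% of all genes called: Pdgfa was lower by a log2 of -0.64 ± 0.18 (SE, adjusted p = 0.0459) and Pdgfra was higher by 0.44 ± 0.13 (0.0494). Both calls were at the threshold. Pdgfa lost its call without any 1 of the 6 libraries (0.0551 to 0.154), and Pdgfra without any but P16 dMF1/2 replicate 2 (0.0676 to 0.152 for the other 5). Pdgfrb differed by 0.25 ± 0.14 (adjusted p = 0.253).

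The receptors were then set against each other within each library, by a ratio chosen after their values had been seen. Pdgfra divided by Pdgfrb, per kilobase, was 1.40, 1.03 and 0.952 in P14 control, 1.72, 1.02 and 1.22 in P14 dMF1/2, 0.700, 0.911 and 0.795 in P16 control, and 1.19, 1.16 and 1.46 in P16 dMF1/2. Per kilobase, Pdgfrb was thus the higher receptor in all 3 P16 controls and in 1 P14 control, and Pdgfra in all 6 dMF1/2 libraries. This order rests on the gene models used, of 10.024 kb for Pdgfra and 5.478 kb for Pdgfrb, which merge all transcript variants. Before division by length, Pdgfra had more reads than Pdgfrb in every library. Which transcript is more abundant is therefore not settled, while the comparison of the ratio between groups does not depend on the lengths. At P16 the ratio in dMF1/2 was 1.58 times that in control, with a log2 difference of 0.66 ± 0.15 (SE) and no overlap. The exact two-sided permutation test gave p = 0.1, the smallest value that 3 libraries against 3 can give, so this design cannot reach 0.05 with that test. At P14 the log2 difference was 0.22 ± 0.28 with overlapping groups, and leaving out a mutant library gave 0.0078 (replicate 1 out) or 0.39 (replicate 2 out). In control the ratio fell from P14 to P16 to 0.718 of its level, a log2 change of -0.48 ± 0.20 (exact two-sided permutation p = 0.1), which was -0.31 without P14 control replicate 1, the library with the highest control ratio.

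**Figure D4:**
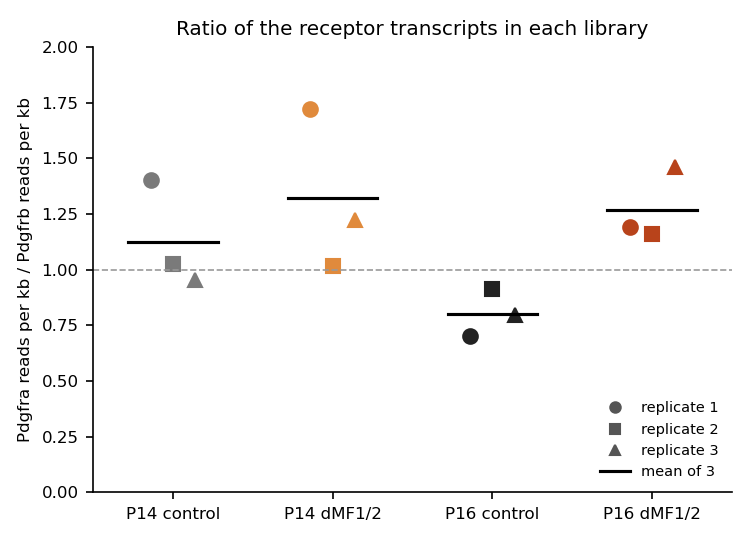
Ratio of Pdgfra to Pdgfrb reads per kilobase in each of the 12 libraries (axis from 0, dashed line at equal reads per kilobase of gene model), by group, with a line at the mean of 3. The P16 controls lie at 0.700 to 0.911, below the line, and P16 dMF1/2 at 1.16 to 1.46, above it.

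The rest of the pathway was read from 4 lists that hold 59 genes, of which 57 were tested. At P14 the genotype comparison called none of the 57 (limma), with 8 at an unadjusted p under 0.05 beside 7.32% of all genes. At P16 it called 4, with 2 higher and 2 lower, beside the 4.32% called among all genes, and 18 were at an unadjusted p under 0.05 beside 19.0% of all genes. The medians of the lists at P16 were -0.10 for processing and binding proteins, -0.07 for receptor effectors, -0.11 for receptor turnover and phosphatases and -0.23 for the other class III receptors and their ligands, against 0.00 for all genes.

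Of the 26 effectors that couple the receptors to the cell interior, 1 rose and 1 fell in P16 dMF1/2. Stat5b, a transcription factor activated by receptor kinases, had 1589.7 to 1739 normalized reads in the P16 controls and 2054 to 2263 in dMF1/2 (log2 0.39 ± 0.08, SE, adjusted p = 0.0352). Nck2, an adaptor that links tyrosine-phosphorylated PDGFRβ to the actin cytoskeleton, had 496 to 617 in control and 350.0 to 379 in dMF1/2 (log2 -0.58 ± 0.11, adjusted p = 0.0250). In neither gene did the groups overlap, as for 24.5% of all genes at P16.

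Of the 10 genes of receptor turnover and phosphatases, 1 rose and 1 fell. Cblb, a ubiquitin ligase that acts on activated receptor kinases, had 2045 to 2071 normalized reads in the P16 controls and 2547 to 3406 in dMF1/2 (log2 0.55 ± 0.11, SE, adjusted p = 0.0353). Sh2b3, the adaptor LNK that dampens cytokine and receptor kinase signals, had 986 to 1098 in control and 675 to 723 in dMF1/2 (log2 -0.58 ± 0.08, adjusted p = 0.0111). These calls were near the threshold: leaving out P16 control replicate 3 ended all 4, Sh2b3 kept its call without any other library, Nck2 only without P16 control replicate 2, Cblb only without P16 dMF1/2 replicate 2, and Stat5b lost it without any 1 library. The log2 differences moved less, between 0.36 and 0.43 for Stat5b, -0.66 and -0.50 for Nck2, 0.47 and 0.68 for Cblb and -0.63 and -0.55 for Sh2b3. A joint fit of the 12 libraries also ended the calls of Stat5b (0.0648) and Cblb (0.0620). At P14, where none was called, Stat5b had 1525 to 1801 normalized reads in control and 1999 to 2559 in dMF1/2, and Sh2b3 had 784 to 1016 and 633 to 747, both with no overlap, as for 12.7% of all genes. Nck2, with 403 to 575 and 359 to 442, and Cblb, with 1954 to 2140.0 and 2022 to 3139, overlapped at P14.

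None of the 16 tested proteins that process or bind PDGF was called between genotypes on either day. From P14 to P16 in control, however, 6 of them changed, 3 up and 3 down, beside 14.5% of all genes. Furin, the convertase that trims PDGF-A and PDGF-B, fell from a scaled mean of 6274 ± 891 to 4564 ± 230.1 reads (SD, n = 3; log2 -0.45 ± 0.12, SE, limma adjusted p = 0.0333). Pcsk5, a related convertase, fell from 3307 ± 648 to 1620.3 ± 637 (log2 -1.10 ± 0.30, adjusted p = 0.0328). Plat, the tissue plasminogen activator that cleaves latent PDGF-C, fell from 1003 ± 271 to 474 ± 115 (log2 -1.08 ± 0.25, adjusted p = 0.0183).

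Among those that rose was Thbs1, a matrix glycoprotein that binds growth factors, PDGF among them, from 11198 ± 1375 to 24946 ± 11265 scaled reads (SD, n = 3; log2 1.06 ± 0.27, SE, limma adjusted p = 0.0250). Its P16 control libraries were wide apart, at 14809.9 to 37461 normalized reads. Nrp1, a co-receptor that was named outside the rule after its values were seen, also rose (log2 0.53 ± 0.15, adjusted p = 0.0346). In dMF1/2 none of the 16 passed the test from P14 to P16, yet Plat was at 503 ± 85.1 scaled reads in P16 dMF1/2, close to its P16 control level, after 909.5 ± 235 at P14. Thbs1 was at 10413 ± 545 scaled reads there, below all P16 controls, with a genotype difference at P16 that was not called (log2 -1.15 ± 0.29, SE, limma adjusted p = 0.0668). The difference between the day changes was not called for any of the 16.

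**Figure D5:**
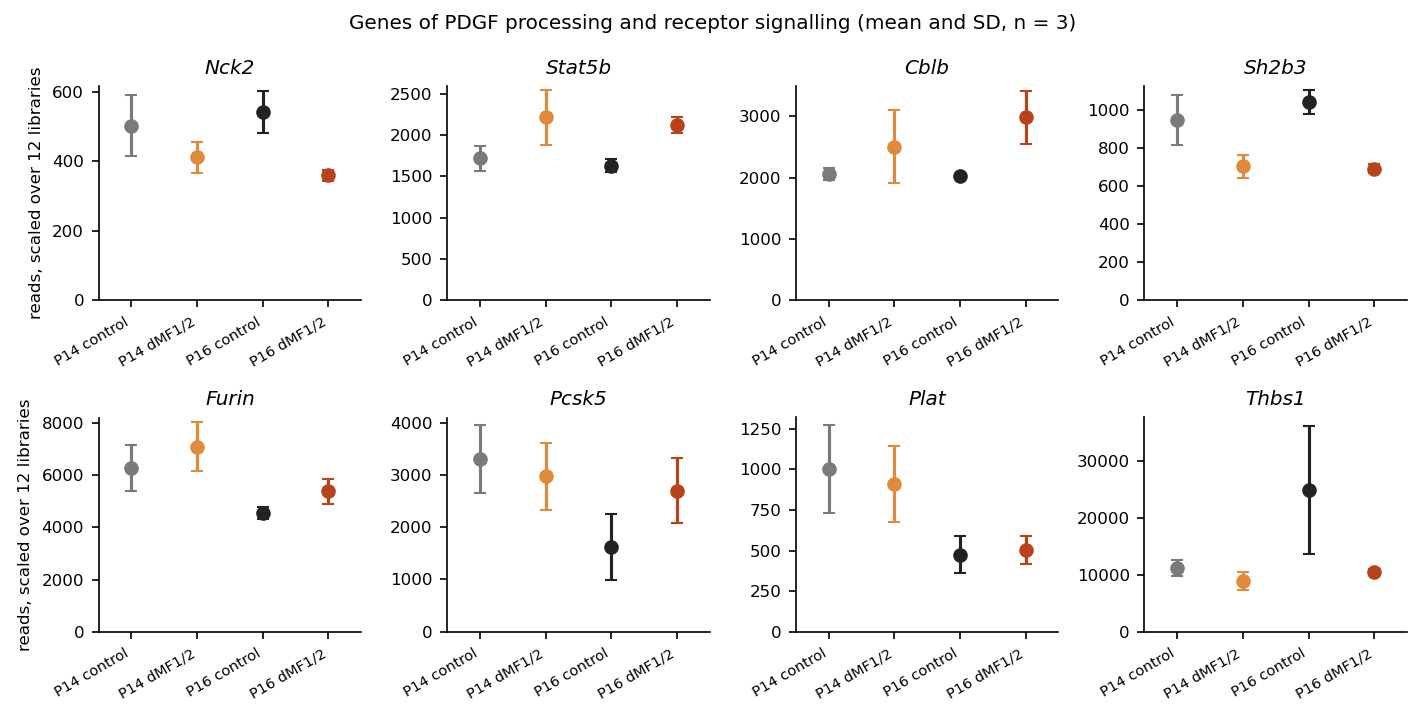
Scaled reads (mean and SD of 3 libraries, axes from 0) of 4 receptor effectors and regulators called between genotypes at P16 (upper row) and 4 PDGF processing and binding genes called between days in control (lower row). Sh2b3 and Nck2 are lower and Stat5b and Cblb higher in P16 dMF1/2, and Thbs1 is highest and most variable in the P16 controls.

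Between days, 3 of the 26 effectors rose in control and 3 in dMF1/2, beside 14.5% and 5.80% of all genes. Pik3ca, the catalytic subunit of phosphoinositide 3-kinase, rose in both, from 1883 ± 94.3 to 2465 ± 25.9 scaled reads in control (SD, n = 3; log2 0.39 ± 0.09, SE, limma adjusted p = 0.0144) and from 1695 ± 148 to 2226 ± 174 in dMF1/2 (log2 0.39 ± 0.09, adjusted p = 0.0228). Crk, an adaptor of receptor kinases, also rose in both (log2 0.34 ± 0.08, adjusted p = 0.0212, and 0.33 ± 0.08, adjusted p = 0.0381). Yes1, a kinase of the Src family, was called in control (log2 0.53 ± 0.11, adjusted p = 0.0112), and Pik3cb, another catalytic subunit, in dMF1/2 (log2 0.64 ± 0.16, adjusted p = 0.0420). In control Pik3cb was at 0.49 ± 0.16 (0.0645), and an alternative setting with all libraries kept called it there too.

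Of the genes of receptor turnover and phosphatases, Ptprj, a receptor phosphatase, was at a log2 change of -0.33 ± 0.11 in control (SE, limma adjusted p = 0.0707), the ubiquitin ligase Cbl at 0.10 ± 0.10 (0.511) and Cblb at -0.02 ± 0.15 (0.931). In a fit of the compared groups alone the calls of Furin, Pcsk5, Thbs1, Yes1 and Crk in control and of Pik3ca, Pik3cb and Crk in dMF1/2 were lost. The calls between days were also near the threshold, and the log2 changes of the called genes kept their direction without any 1 library. In control, leaving out P14 replicate 1 or P16 replicate 1 ended those of Furin, Pcsk5, Plat, Thbs1, Pik3ca and Crk, leaving out P14 replicate 2 those of Furin, Pcsk5, Thbs1 and Crk, leaving out P16 replicate 3 those of Furin, Thbs1 and Crk, and leaving out P16 replicate 2 that of Furin, while Yes1 kept its call without any 1 library. In dMF1/2, leaving out P14 replicate 2 or 3 or P16 replicate 1 or 3 ended all 3, and leaving out P14 replicate 1 that of Crk.

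The other class III receptors, kin of the PDGF receptors in the same family, gave 1 call among 5 genes tested between P14 and P16 in control, beside the 14.5% of all genes, and none between genotypes on either day or between days in dMF1/2 (limma, with 1 of the 5 at an unadjusted p under 0.05 at P16 and 0 in the others). Kit, the receptor of stem cell factor and best known in melanocytes and mast cells, rose in control from 27.1 ± 6.58 to 79.0 ± 10.8 scaled reads (SD, n = 3; log2 1.53 ± 0.31, SE, limma adjusted p = 0.0108) and kept its call without any 1 library. In dMF1/2 it went from 25.4 ± 8.37 to 37.0 ± 13.8 (log2 0.51 ± 0.31, adjusted p = 0.361). Its ligand Kitl was at 0.92 ± 0.40 in control (0.139), Csf1r at 1.12 ± 0.63 (0.248) and Flt3l at 0.49 ± 0.30 (0.288). Without P14 control replicate 1, Csf1r was at 0.35 and Flt3l at 0.18. Melanocyte markers are given beside Kit: 6 of them summed to 508 to 667 scaled reads in the P14 controls and 801 to 895 in the P16 controls, and to 594 to 629 and 758 to 830.1 in dMF1/2, with most of it from Mitf and 0 to 11.9 scaled reads from the pigment gene Dct, and the part of these cells in the rise of Kit was not tested.

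The genes whose pattern over the 12 libraries was most like that of each member were found by the root mean square (RMS) difference of log2 values after the mean of each gene was subtracted, among 13414 other genes. For Pdgfrb these were Arrb1, a β-arrestin (0.05), Arhgef7 (0.06) and A230046K03Rik (0.08), where the median gene differed by 0.34. For Pdgfra they included Lrp1, an endocytic receptor known to associate with PDGFRβ (0.08), and Mill2 (0.09), against a median of 0.32. Lrp1 was a member of the list of binding proteins and went from 81370 normalized reads in P14 control to 91680 in P14 dMF1/2 and from 78986 in P16 control to 103483 in P16 dMF1/2, without a call (adjusted p = 0.974 and 0.225). The ligands had looser neighbours: Crlf2, Jph4 and Igfbp7 for Pdgfa (all 0.13), Fign, Tmem140 and Psd4 for Pdgfb (0.18 to 0.24), Atpaf2, Ppt1 and Prkar2b for Pdgfc (0.16 to 0.18), and Creb3, Wbscr17 and Sema3c for Pdgfd (0.14 to 0.15).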

How the data were processed

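DP cells of 12 libraries (4 groups of 3) were sorted for YFP, and total RNA was depleted of ribosomal RNA and sequenced with a stranded kit. Per the labels and the study's methods, reads were trimmed with Trimmomatic, mapped to mm10 with TopHat2 and counted per Ensembl gene (GRCm38.p4) with HTSeq, and the deposited values, 1 table per day, are read counts that the authors divided by DESeq2 size factors (a normalized signal, not whole counts). The tables also hold the authors' own fold changes, errors and p-values, which were not used. No column was left unmapped (0).

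Dividing by the smallest step gave whole reads (within 1e-06) for 100% of values. The main test was limma 3.58.1 (R 4.3.3; trend, log2(value + 1), mean of at least 10, Benjamini-Hochberg over all genes tested, threshold 0.05), since the deposited unit is a normalized signal; genotypes were fitted per day and days after rescaling genes of both tables by the median of ratios over 12 libraries. edgeR 4.0.16 and DESeq2 1.42.0 on the recovered reads, TMM scaling, pseudocounts of 0.1 and 10, no filter, at least 10 reads in every library, a replicate block, other sets of libraries and each library left out were alternatives; the scripts were tested on simulated data. Reads per kb used exon unions of GENCODE vM21. With 19302358 to 29860750 reads per library, counting error is small for the receptors and large for Pdgfb.

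Same-numbered libraries of a day deviated together (r of deviations from group means over genes 0.586, 0.389 and 0.304 at P14 and 0.256, 0.293 and 0.311 at P16), so the numbers pair libraries within a day. The sample descriptions also give the same letter to these pairs, though no label says what a number or letter marks. The main genotype fits did not use the pairing, and fits with a replicate block were alternatives. With that block limma called Fgfr1 at P16 (log2 -0.50, adjusted p = 0.0109), which the main fit did not.

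The members and lists were chosen with earlier results of these data known. Named were all members, pathway genes called between genotypes or with 1 of the 4 smallest p-values of their list between days, and the 3 nearest patterns. Results of a few genes that these rules would name are not reported here.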

Additional observations from a re-analysis of the deposited data

How the results depend on the processing

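With all libraries kept, 312 of 324 recomputed values of the 6 members kept their direction and their side of the threshold, and with 1 library left out 212 of 252 did. The cause was not tested where a value changed. At P16 the replicate block, DESeq2 and edgeR with the replicate block each called 1 member, Pdgfra, instead of 0, and the block changed no other call of a member. For the day change in control the count of 1 became 0 in a fit of the compared groups only and without both libraries of P14 pair 1, and was 0 to 1 without single libraries. Between P16 dMF1/2 and P14 control the count of 2 became 1 with edgeR, 1 with TMM scaling, 0 with no filter on low values, 0 in a fit of the compared groups only and 1 without P14 pair 1, and 0 to 1 without single libraries.

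Log2 differences that were near 0 turned their sign without single libraries. Between genotypes at P14 the range was -0.40 to 0.13 for Pdgfd, -0.066 to 0.14 for Pdgfrb and -0.22 to 0.031 for Fgfr2. At P16 it was -0.35 to 0.14 for Pdgfb, -0.18 to 0.13 for Pdgfc, -0.068 to 0.28 for Pdgfd and -0.086 to 0.13 for Fgfr2. Between days in control it was -0.27 to 0.0060 for Pdgfc, -0.34 to 0.19 for Pdgfd, -0.036 to 0.067 for Pdgfra and -0.052 to 0.013 for Cblb, and in dMF1/2 -0.10 to 0.29 for Pdgfc and -0.012 to 0.41 for Pdgfd. For the difference between day changes it was -0.28 to 0.11 for Pdgfa and -0.0021 to 0.53 for Pdgfd, and between P16 dMF1/2 and P14 control -0.33 to 0.024 for Pdgfc and -0.21 to 0.31 for Pdgfd. Other uncalled differences of the members kept their sign but moved by over 1.5 times without some library: between genotypes Pdgfb (0.13 to 0.51) and Pdgfra (0.14 to 0.34) at P14 and Pdgfa (-0.58 to -0.19) and Pdgfrb (-0.32 to -0.15) at P16, between days Pdgfa in control (-0.45 to -0.06) and Pdgfa (-0.45 to -0.21), Pdgfb (0.02 to 0.50), Pdgfra (0.10 to 0.30) and Pdgfrb (0.12 to 0.30) in dMF1/2, for the difference between day changes Pdgfb (-0.68 to -0.20), Pdgfc (0.0031 to 0.39), Pdgfra (0.09 to 0.29) and Pdgfrb (-0.37 to -0.17), and between P16 dMF1/2 and P14 control Pdgfb (0.33 to 0.83) and Pdgfrb (0.14 to 0.32). Pdgfra in control was at -0.0094 with edgeR and -0.012 with TMM scaling, Cblb in control at 0.013 without P14 pair 1, and Pdgfd between P16 dMF1/2 and P14 control at -0.21 without that pair.

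Over all genes, the P14 count of 7 was 207 with DESeq2, 224 with the replicate block and 245 with edgeR and the block, 11 in a joint fit and 0 to 18 without single libraries. The P16 count of 582 was 1123 with DESeq2, 1403 with the block, 1439 with edgeR and the block and 149 to 684 without single libraries. The control count of 1951 was 806 in a fit of the compared groups only, 951 without P14 pair 1 and 693 to 1945 without single libraries. The dMF1/2 count of 778 was 322 in the fit of the compared groups only, 1341 with DESeq2 and 257 to 678 without single libraries, and between P16 dMF1/2 and P14 control the count of 1471 was 607 and 654 to 1095. At 17 to 51 reads per library, Pdgfb was the member most limited by depth.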
